A study of Mus musculus with 2 samples.

Results

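Semaphorins, ephrins, Slits and netrins are secreted or membrane-bound cues, and plexins, Eph receptors, Robo receptors and the netrin receptors Dcc and Unc5 are the cell surface proteins that read them. The genes of these families were taken from the array by their gene names. They came to 66 genes of the 29875 named on the array, 35 for ligands and 31 for receptors, and were covered by 96 probes. The neuropilins and Robo4, an endothelial member of the Robo family, were not among them and are described with the partner genes.

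The RNA came from ureters of wildtype NMRI mouse embryos, taken at E12.5 and kept as explants on membranes for 18 h, per the study's methods without serum. One group received 10 µM BIO (6-bromoindirubin-3-oxime), which inhibits the kinase GSK3 and so activates canonical WNT signaling, and the control group received the solvent DMSO at 2 parts per 1000. Each of the 2 arrays held the RNA of a BIO pool and of a control pool in its 2 channels, and the dyes were exchanged between the arrays. The ureters were pooled, the sex of the embryos was not determined, and every tissue layer of the explant contributed to the RNA. Fewer cells of a type and less RNA per cell can therefore not be told apart in these data.

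Guidance cues were named for the steering of growing axons, and the same families act outside the nervous system. Ephrins and Eph receptors sort cells at tissue borders, class 3 semaphorins and plexins steer endothelial cells as well as axons, and Slit2 with Robo2 restricts the site at which the ureteric bud grows out of the nephric duct. In the ureter these cues can reach the epithelium, the surrounding mesenchyme, vessels and ingrowing nerves.

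Far more guidance genes fell than rose with BIO. Of the 61 genes that were tested, 4 rose and 22 fell, and 35 did not pass the test, which was a limma fit of the ratios of both arrays with adjustment over all 28824 tested probes of the array. Over all 21574 genes tested, 9.13% rose and 14.8% fell, whereas the shares among the guidance genes were 6.56% and 36.1%. The median log2 ratio of the guidance genes was -0.21, with -0.15 in replicate 1 and -0.29 in replicate 2, and that of all genes was -0.01. The ratio had the same sign on both arrays in 48 of the 61 guidance genes, against 15719 of all 21574 genes tested. All 26 called genes are among the 48, which a test on the mean of both arrays favors. The split depended on the values used: in the fold-change table that the authors deposited, 7 guidance genes rose and 4 fell, at a median of -0.19. Every gene is represented by its brightest tested probe, and log2 ratios are BIO over control, given with the moderated standard error of the fit. This error leans on a prior taken from all tested probes, with 7.14 degrees of freedom. It is not the spread of a gene over its 2 arrays alone. The intervals given below are built from the same error.

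**Figure D1:**
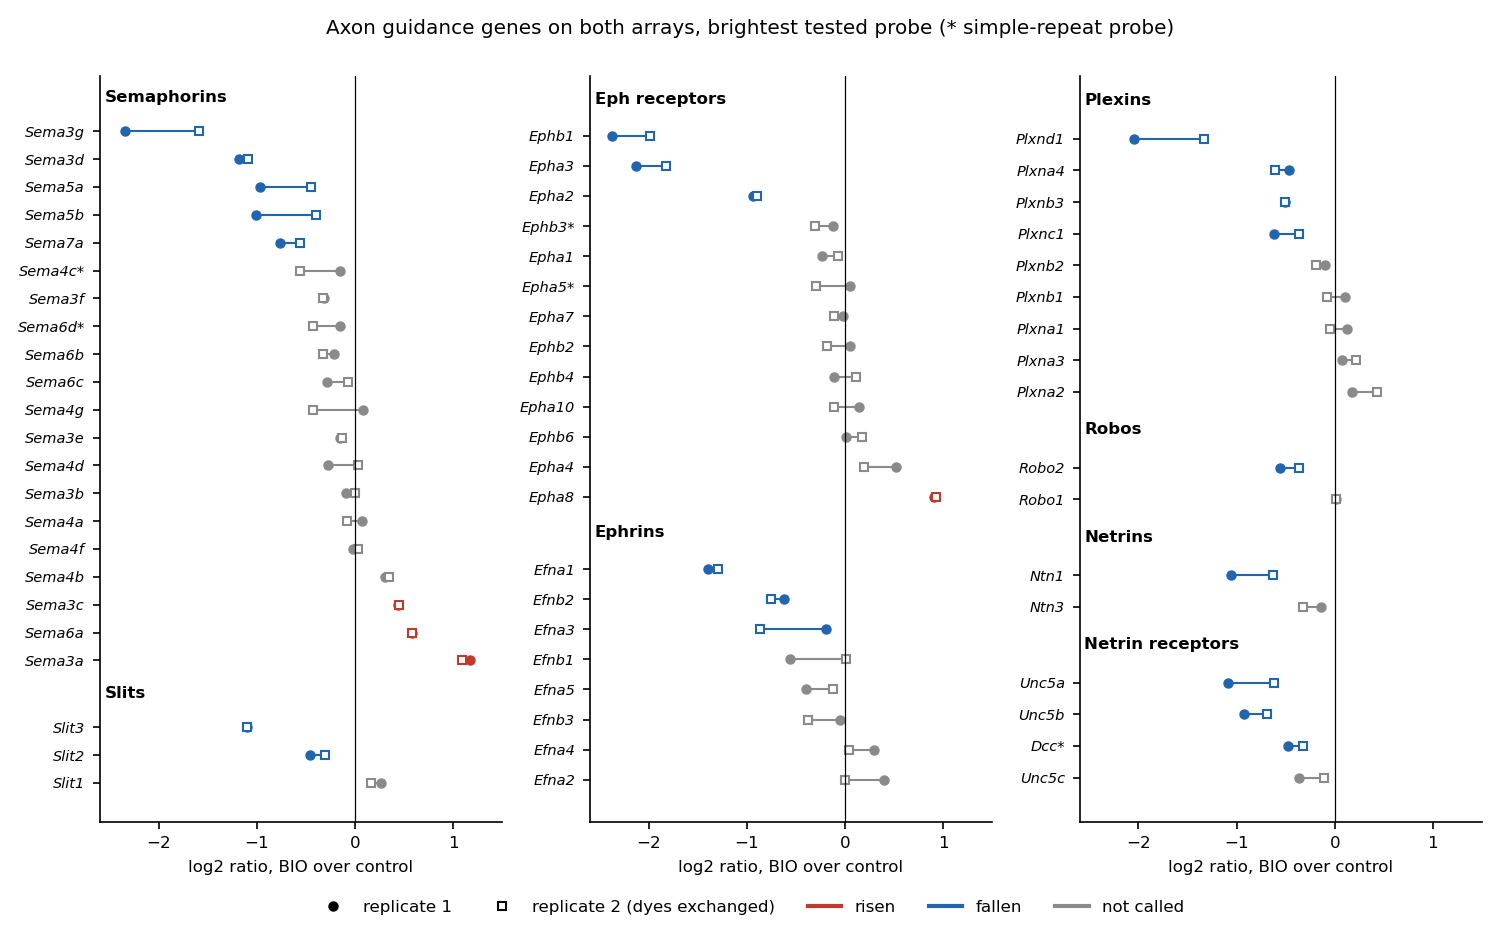
The log2 ratio of BIO over control (horizontal axis) is plotted for the 61 tested guidance genes, with replicate 1 as a filled circle and replicate 2 as an open square, and color shows the result of the limma test. The 22 fallen genes lie left of 0 on both arrays, the 4 risen genes lie right of 0, and an asterisk marks the 5 genes whose brightest probe holds a simple repeat.

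The 5 genes that were not tested were Epha6, Robo3, Ntn4, Ntn5 and Unc5d, whose probes were well above background neither in both control channels nor in both BIO channels. A stricter rule asked for a processed intensity of at least 100 in the brighter channel and a ratio of at least 2-fold on each array. By this rule 1 guidance gene, Sema3a, was higher with BIO, and 7 were lower, namely Ephb1, Epha3, Sema3g, Plxnd1, Efna1, Sema3d and Slit3. Of all genes tested, 1.04% were higher by this rule and 2.04% were lower. The rule has no test.

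**Figure D2:**
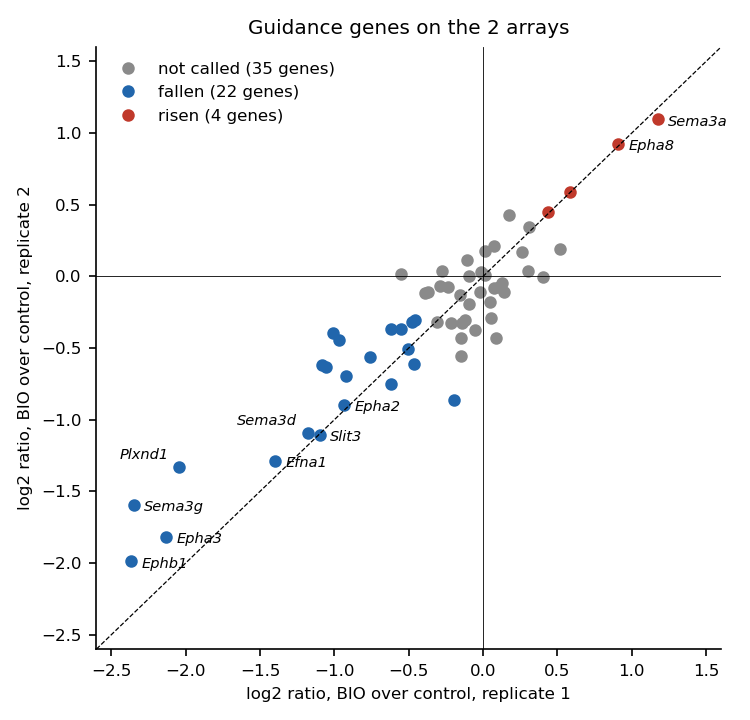
Each point is a tested guidance gene, with its log2 ratio of BIO over control in replicate 1 on the horizontal axis and in replicate 2, where the dyes were exchanged, on the vertical axis. Genes on the dashed line had the same ratio on both arrays, and Ephb1, Epha3, Sema3g and Plxnd1 lie lowest, all 4 with the larger fall in replicate 1.

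For 5 of the genes the brightest probe held a simple repeat, in which 16 or more bases in a row repeat a unit of 1 to 3 bases. Such probes made up 0.591% of the array, 233 of 39429, and among the guidance probes there were 5. They are shown here because the calls of Dcc, Epha5 and Sema6d turn on them. Capitals mark the repeat. The lines give 60 bases for Dcc and 30 for the others, 5′ to 3′, as the scanner files list the probes.
Dcc, brightest probe: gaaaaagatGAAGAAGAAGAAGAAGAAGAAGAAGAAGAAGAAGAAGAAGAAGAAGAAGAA
Epha5, brightest probe: gaaatTGTGTGTGTGTGTGTGTGTGcgtgc
Epha5, second probe: gttcccatctgcatttgtttgtgctttcag
Epha5, further probe: gtaccatttattacctataaatatcatagt
Sema6d, brightest probe: agaggggcgaGTGTGTGTGTGTGTGTGTGT
Sema6d, second probe: taaagaggacaccatccttaaaacctgatg
Sema4c, only probe: aaTGTGTGTGTGTGTGTGTGTGTGTtgtaa

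The probe named Dcc is a run of GAA over 51 of its 60 bases, and 50 probes of other genes share at least 16 consecutive bases with it. The array's annotation places it on chromosome 7 (mm9, chr7:68417162-68417221), away from the other 2 probes of Dcc, the netrin receptor that attracts axons. Its log2 ratio was -0.40 ± 0.11, which passed the test with an adjusted p of 0.0349. The other Dcc probes gave -0.03 ± 0.11 and -0.11 ± 0.12 and did not pass, so the call of Dcc belongs to the repeat probe alone.

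Epha5 and Sema6d showed the reverse. Epha5 is an Eph receptor of the A class and Sema6d a transmembrane semaphorin. The brightest Epha5 probe, with a TG repeat, had intensities of 13530 and 12010 in the control channels of replicates 1 and 2 and of 14034 and 9812 in the BIO channels, at a log2 ratio of -0.12 ± 0.12 (adjusted p = 0.543). The repeat-free probes of Epha5 fell by 0.56 (adjusted p = 0.0176) and by 0.86 (adjusted p = 0.00107) on the log2 scale. Likewise, the repeat probe of Sema6d gave -0.29 ± 0.12 (adjusted p = 0.119), whereas its second probe went from 946 and 930 in control to 474 and 436 with BIO and fell by 1.05 (adjusted p = 0.000416). With all simple-repeat probes left out, a choice made after these values were seen, 59 guidance genes were tested and 23 fell, with Epha5 and Sema6d among them and Dcc not. Ephb3 and Sema4c had no other probe, and their repeat probes gave -0.21 ± 0.11 and -0.35 ± 0.13 without passing the test. The repeat probes of Sema4c, Ephb3, Epha5 and Sema6d shared at least 16 consecutive bases with 75, 74, 74 and 73 probes of other genes.

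**Figure D3:**
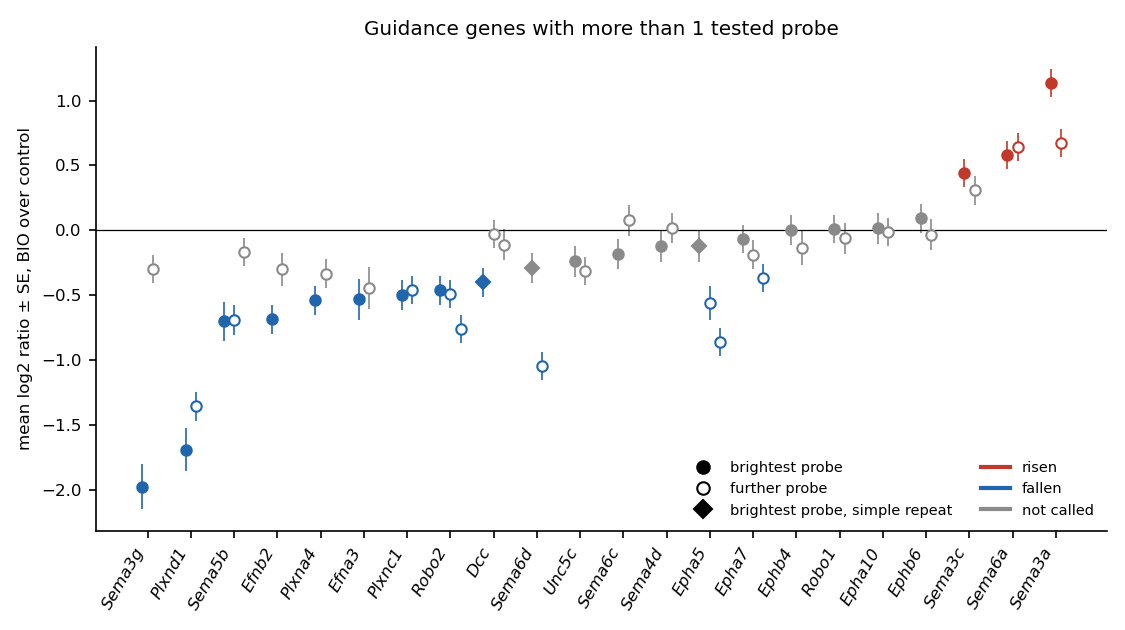
The mean log2 ratio of BIO over control with its standard error (vertical axis) is plotted for each tested probe of the 22 guidance genes with more than 1 tested probe, with filled symbols for the brightest probe, diamonds for brightest probes with a simple repeat, and open circles for the others. No gene had probes called in opposite directions, and in 10 genes some probes were called and others were not, with the widest gap at Sema3g.

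Among the ligands, the semaphorins moved in both directions. Of 20 genes, 3 rose (15%), 5 fell (25%) and 12 were not called, against 9.13% risen and 14.8% fallen of all genes tested. Here and in the families below the genes are few, and the shares were not compared by a test. Sema3a, a secreted semaphorin that repels axons through neuropilin 1 and class A plexins, was the guidance gene that rose most. Its intensity was 1011 and 924 in the control channels and 2281 and 1974 in the BIO channels. Both BIO values lie above both control values, also across the arrays, although intensities were normalized within each array only. Here and below, such separation is favored in genes called from the same values and is no further test. Its share over all genes tested was not counted. The rise was 2.19-fold, at a log2 ratio of 1.13 ± 0.11 (adjusted p = 0.000294), and the second probe of Sema3a rose by 0.67 ± 0.11 (adjusted p = 0.00352).

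Sema6a, a transmembrane semaphorin that binds plexins of class A, rose 1.5-fold, from 11367 and 10433 to 17006 and 15666, and both of its probes were called. Sema3c, a secreted semaphorin that acts through neuropilins and Plxnd1, went from 41601 and 40417 to 56326 and 55157. In both genes the channels of the groups did not overlap. The log2 ratio of Sema3c was 0.44 ± 0.11 (adjusted p = 0.0209), and its second probe, at 0.31 ± 0.11, did not pass (adjusted p = 0.081).

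The largest fall of a ligand was that of Sema3g, a secreted semaphorin that binds neuropilin 2. Its brightest probe (mm9, chr14:32043435-32043494) gave 6238 and 5909 in control and 1226 and 1959 with BIO. Control was thus higher by 3.92-fold on average, with a deeper fall in replicate 1 (log2 ratio of -2.35) than in replicate 2 (-1.59). The second probe of Sema3g was dim and gave -0.30 ± 0.11 (adjusted p = 0.0866). In the processed signals, which carry no offset, it went from 31.7 and 40.6 to 25.5 and 28.8. Which probe reports the transcript was not tested.

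Sema3d, a secreted semaphorin known from heart and vessel development, fell from 4582 and 5111 to 2023 and 2396, a log2 ratio of -1.14 ± 0.11 (adjusted p = 0.000294). Sema5a, which carries thrombospondin repeats outside the cell, went from 42302 and 36022 to 21586 and 26473, a log2 ratio of -0.71 ± 0.14 (adjusted p = 0.00914). In both genes each BIO channel lay below each control channel. Sema5b, the other class 5 semaphorin, fell by 0.70, and 2 of its 3 probes were called. Sema7a, a membrane-anchored semaphorin that binds Plxnc1 and integrins, fell by 0.66. None of the 6 class 4 semaphorins was called, and their log2 ratios lay between -0.35 for Sema4c and 0.33 for Sema4b.

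Among the plexins, which are the receptors of the semaphorins, 4 of 9 fell (44.4%) and 0 rose, against 14.8% and 9.13% of all genes tested. The highest value was 0.30 ± 0.12 for Plxna2 (adjusted p = 0.1). Plxnd1, the plexin of endothelial cells and the receptor of Sema3e, was lower on both probes. Its brightest probe (mm9, chr6:115904829-115904888) gave 16576 and 16217 in control and 4016 and 6448 with BIO, which is 3.22-fold higher in control. The log2 ratio was -1.69 ± 0.17 (adjusted p = 0.000319), and that of the second probe was -1.35 ± 0.11 (adjusted p = 0.000156).

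Plxna4, Plxnb3 and Plxnc1 fell by 0.54, 0.51 and 0.50 on the log2 scale. Plxnb3 was close to background, with processed signals of 39.2 and 52.3 in control and 21.8 and 27.7 with BIO. It lost its call with median centering in place of loess (adjusted p = 0.086). The second probe of Plxna4 gave -0.33 and was not called (adjusted p = 0.0714). Both probes of Plxnc1, the receptor of Sema7a, were called. Its brightest probe lost the call with processed signals (adjusted p = 0.0819) and with median centering (adjusted p = 0.0947). Sema3e, the known ligand of Plxnd1, gave -0.14 ± 0.11 and was not called.

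**Figure D4:**
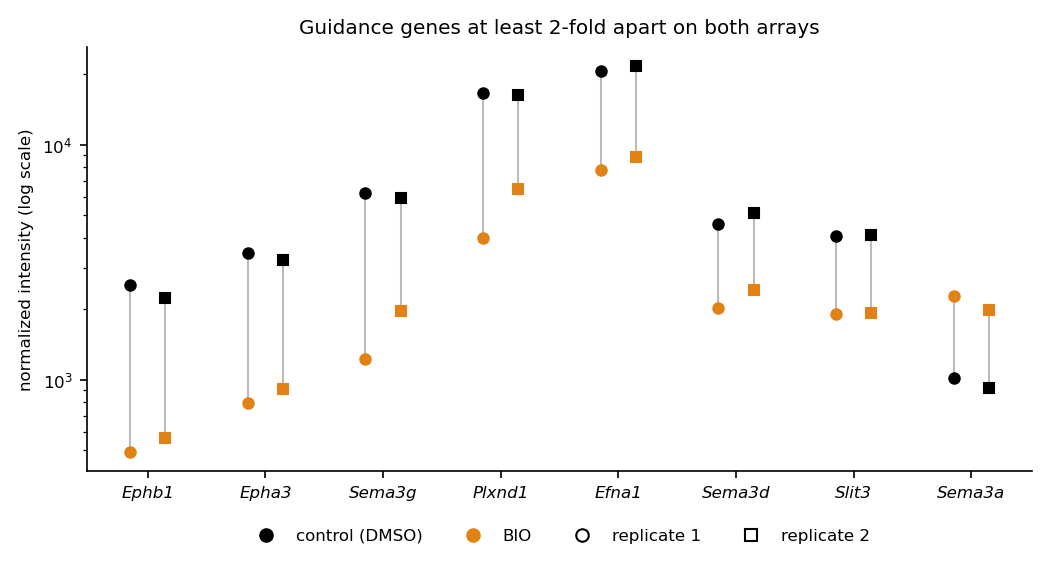
Normalized intensity (vertical axis, log scale, offset of 50 included) in the control and BIO channel of both arrays for the 8 guidance genes that were at least 2-fold apart on both arrays. In the 7 genes on the left each BIO value lies below the control value of its array, and for Sema3a, on the right, above it. This follows from how the genes were chosen. Heights should not be compared between genes, since probes differ in brightness.

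Of the 8 ephrins, 3 fell (37.5%) and 0 rose, against 14.8% and 9.13% of all genes tested. Efna1, a ligand of Eph receptors of the A class that is tethered to the membrane by a lipid anchor, was at 20625 and 21567 in control and at 7821 and 8822 with BIO. All BIO values lay below the control values, and the fold was 2.54 in favor of control, at a log2 ratio of -1.34 ± 0.11 (adjusted p = 0.000154). Efnb2, a transmembrane ephrin that marks arterial endothelium, fell by 0.68 (adjusted p = 0.00337) at its brightest probe, while its dimmer probe gave -0.30 and was not called. Efna3 fell by 0.53 but unevenly, with -0.20 in replicate 1 and -0.86 in replicate 2 (adjusted p = 0.0453). Its second probe, at -0.44, was not called, and Efna3 lost its call with processed signals, an offset of 16, no filter on dim probes, the mean of both probes and the deposited scores, at adjusted p from 0.0501 to 0.49. The other ephrins ranged from -0.27 to 0.20.

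The Eph receptors contained the deepest falls of all guidance genes, although 9 of the 13 tested were not called. The shares were 23.1% fallen and 7.69% risen, against 14.8% and 9.13% of all genes tested. Ephb1, a receptor of class B ephrins, gave 2538 and 2235 in control and 491 and 564 with BIO (mm9, chr9:101824549-101824608). Each BIO channel was far under each control channel, and control was 4.53-fold higher, at a log2 ratio of -2.18 ± 0.13 (adjusted p = 4.47e-05).

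Epha3, a receptor of class A ephrins found in mesenchymal cells, gave 3470 and 3222 in control and 792 and 913 with BIO (mm9, chr16:63545155-63545214). The groups were again well apart, at a log2 ratio of -1.98 ± 0.12 (adjusted p = 5.2e-05). Epha2, an Eph receptor of epithelial cells, went from 5098 and 4266 to 2665 and 2294 and fell by 0.92 (adjusted p = 0.000762).

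Epha8 was the exception among the Eph receptors. Its intensity was 2443 and 1917 in control and 4582 and 3644 with BIO, so that both BIO channels exceeded both control channels. The log2 ratio was 0.92 ± 0.11 (adjusted p = 0.00075), nearly the same on both arrays at 0.91 and 0.93. Epha4 gave 0.36 ± 0.12 and missed the threshold (adjusted p = 0.0701), and it passed when spots marked as outliers were kept. Ephb4, the venous receptor of Efnb2, had a log2 ratio of 0.00 with a 95% interval from -0.26 to 0.27. Of the 3 probes of Epha7, 1 fell by 0.36 (adjusted p = 0.0429), and the brightest gave -0.07.

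In the Slit and Robo families the falls were graded. Slit3, a secreted Slit ligand, went from 4086 and 4137 to 1906 and 1925, with a log2 ratio of -1.10 on each array (adjusted p = 0.000316). Slit2 fell by 0.38 (adjusted p = 0.0404), and lost its call with processed signals (adjusted p = 0.102) and with median centering (adjusted p = 0.218). Slit1, close to background, gave 0.21 ± 0.11 and was not called. Robo2 fell on all 3 of its probes, by 0.46, 0.49 and 0.76. Its brightest probe lost the call with processed signals (adjusted p = 0.0794) and with median centering (adjusted p = 0.135). The brightest Robo1 probe gave 10907 and 12301 in control and 10981 and 12382 with BIO, a log2 ratio of 0.01 with a 95% interval from -0.24 to 0.26.

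All tested netrins and netrin receptors had negative ratios, 2 of 2 and 4 of 4, as had 11080 of all 21574 genes tested. Dcc is counted here by its repeat probe. Ntn1, the secreted netrin 1, was at 668 and 599 in control and at 321 and 387 with BIO, a log2 ratio of -0.84 ± 0.13 (adjusted p = 0.0029). Unc5b, a netrin receptor of endothelial cells, went from 40523 and 33999 to 21396 and 21045 and fell by 0.81 (adjusted p = 0.00188). Unc5a, known as a neuronal repulsive receptor, went from 467 and 409 to 221 and 266 and fell by 0.85 (adjusted p = 0.00316). In all 3 genes the groups did not overlap, which a call from the same values favors. How often this held over all genes tested was not counted. Ntn3 gave -0.23 and Unc5c -0.24, and neither was called.

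Coreceptors, adhesion partners and cytoplasmic effectors of these pathways gave a similar direction. Of 17 tested coreceptors and partners, 6 fell (35.3%) and 0 rose, at a median of -0.15. Of 29 tested effectors, 7 fell (24.1%) and 0 rose, at a median of -0.14. Over all genes tested, 14.8% fell and 9.13% rose, at a median of -0.01. Nrp2, the coreceptor of class 3 semaphorins in veins and lymphatic vessels, fell by 1.13 ± 0.12 (adjusted p = 0.000541), while Nrp1 gave -0.32 ± 0.12 (adjusted p = 0.0866). Robo4 fell from 10414 and 10703 to 2027 and 3347, a log2 ratio of -2.02 ± 0.16 (adjusted p = 0.000145). Chl1, an adhesion molecule that partners with semaphorin receptors, fell by 1.22 (adjusted p = 0.00022), and the effector Mical2, which oxidizes actin, fell by 1.20 (adjusted p = 0.000601).

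In 7 places of the genome guidance genes of one family lie less than 5 Mb apart, and neighbors are given side by side. Within 0.0625 Mb of chromosome 3 (mm9), Efna1 fell by 1.34 and Efna3 by 0.53, and Efna4 gave 0.17 without a call. Within 4.65 Mb of chromosome 5, Sema3d fell by 1.14, Sema3a rose by 1.13 and Sema3c rose by 0.44, and Sema3e, which lies between Sema3a and Sema3c, was not called. On chromosome 4 Epha8 rose and Epha2 fell within 4.67 Mb, and Ephb2, beside Epha8, gave -0.07. Robo1 and Robo2, with probes 0.849 Mb apart on chromosome 16, gave 0.01 and -0.46.

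Promoters were searched on both strands for 4 heptamers with the core letters of TCF/LEF sites, of which the first was CTTTGAA, the next was CTTTGAT, the third was CTTTGTA and the last was CTTTGTT. RefSeq promoters of assembly GRCm38.p6 were taken from 250 bases before to 50 after a gene's start. The search covered 56 of the 66 guidance genes, matched by symbol, 72 promoters in all. Any of the 4 heptamers was found in 7 of the 72, or 9.72%, against 16.9% of all 32851 promoters. CTTTGTA, held by 3.63% of all promoters, occurred in those of Sema3c, which rose, and Sema3d, which fell. CTTTGAA, held by 5.14%, occurred in those of Epha2, which fell, and Sema3e, which was not called. CTTTGTT, held by 5.85%, occurred in those of Efna4, Plxnb1 and Sema6d, none of them called at the brightest probe, and CTTTGAT, held by 3.73%, in none. The promoters of the 3 called genes with a match are printed, with the match in capitals (TACAAAG is CTTTGTA read on the other strand).
Sema3c, chr5:17574566-17574865, plus strand: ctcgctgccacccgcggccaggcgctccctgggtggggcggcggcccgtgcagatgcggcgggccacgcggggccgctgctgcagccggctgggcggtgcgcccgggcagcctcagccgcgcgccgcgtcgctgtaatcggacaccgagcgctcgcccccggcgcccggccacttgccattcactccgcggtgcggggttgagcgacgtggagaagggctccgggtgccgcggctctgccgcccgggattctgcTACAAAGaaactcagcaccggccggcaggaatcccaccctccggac
Sema3d, chr5:12382916-12383215, plus strand: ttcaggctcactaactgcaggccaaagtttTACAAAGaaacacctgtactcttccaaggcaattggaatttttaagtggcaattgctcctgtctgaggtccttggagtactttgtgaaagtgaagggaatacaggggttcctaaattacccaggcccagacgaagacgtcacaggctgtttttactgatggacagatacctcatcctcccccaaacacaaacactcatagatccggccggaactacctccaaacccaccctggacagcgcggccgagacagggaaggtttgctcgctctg
Epha2, chr4:141300971-141301270, plus strand: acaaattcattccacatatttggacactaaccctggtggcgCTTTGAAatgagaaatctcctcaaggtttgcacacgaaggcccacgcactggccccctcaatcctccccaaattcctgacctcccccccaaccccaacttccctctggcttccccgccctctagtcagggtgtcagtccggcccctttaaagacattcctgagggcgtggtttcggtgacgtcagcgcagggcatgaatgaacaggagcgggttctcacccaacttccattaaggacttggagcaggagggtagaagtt

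The match lies at bases 255 to 261 of the Sema3c promoter, 31 to 37 of the Sema3d promoter and 42 to 48 of the Epha2 promoter, counted from the first base printed. A match of letters describes the sequence and does not show that a factor binds there. Sema3a, the guidance gene with the largest rise, held none of the 4 heptamers in this window. Sema6a, which rose, was left out of the search with chromosome 18, as was Dcc, whose repeat-free probes lie there. Whether their promoters hold a match was not tested.

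Markers of several cell types moved together with the guidance genes. All 10 endothelial markers were above background and fell, at a median log2 ratio of -1.71 and between -2.63 for Kdr and -0.95 for Eng. Their summed intensity was 106272 and 103766 in the control channels and 23031 and 33617 in the BIO channels. Of the 10 mesenchymal markers 8 fell and Prrx1 rose, and of the 10 epithelial markers, all above background, 5 fell. Among 9 tested neuronal and Schwann cell markers 5 fell, and of 5 tested macrophage markers 4 fell. For comparison, 14.8% of all genes tested fell. The summed mesenchymal intensity went from 890913 and 851686 to 594716 and 508598, and the epithelial one from 288264 and 237293 to 171054 and 169056. For the neuronal and Schwann cell markers the sums were 115751 and 106419 in control and 78921 and 90846 with BIO, and for the macrophage markers 11347 and 10615 against 5974 and 7615. Plxnd1, Sema3g, Unc5b, Efnb2, Nrp2 and Robo4, which fell at their brightest probes, are genes that endothelial cells are known to express. The part of the endothelial fall in their ratios was not tested. Ephb4, the venous receptor, gave 0.00 and was not called, and the other neuropilin, Nrp1, gave -0.32 and was not called. The dimmer probes of Sema3g and Efnb2 each gave -0.30 without a call. All 9 known WNT targets examined rose, at a median of 1.32.

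**Figure D5:**
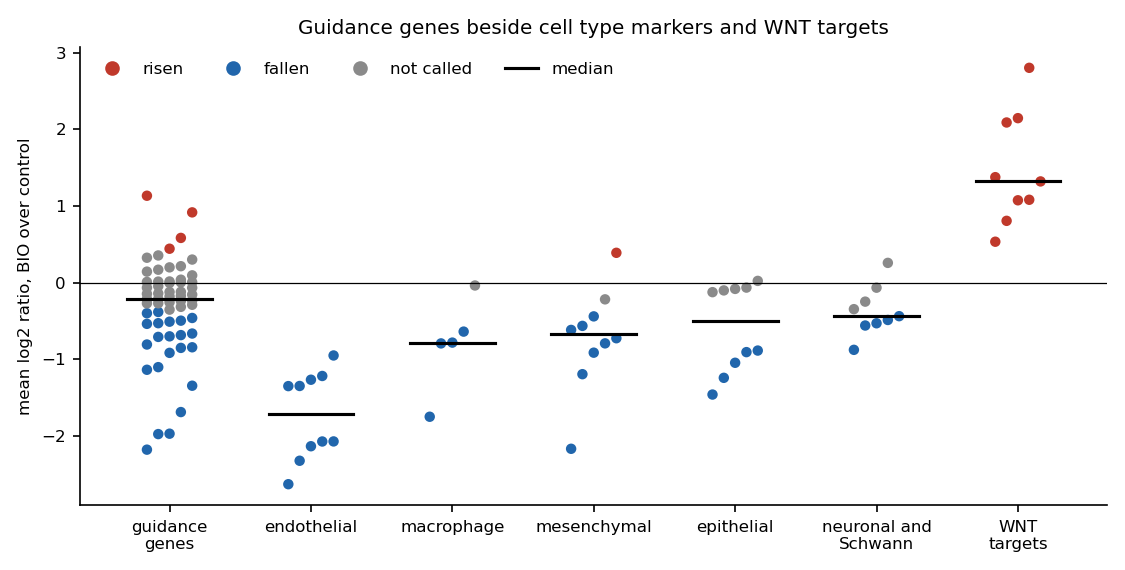
The mean log2 ratio of BIO over control (vertical axis) is plotted for the tested guidance genes and for marker genes of 5 cell types and the WNT targets, with a bar at each median. The endothelial markers have the lowest median, -1.71, the guidance genes spread from -2.18 for Ephb1 to 1.13 for Sema3a, and all 9 WNT targets lie above 0.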

How the data were processed

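RNA of BIO-treated and control ureter explants was hybridized by the authors to 2 Agilent 2-color arrays, on which each probe has 4 spots, with dyes exchanged in replicate 2. Per the file headers, spots were quantified with Agilent Feature Extraction 10.7.3.1. The deposited intensities are mean spot and local background intensities, without normalization, and processed signals that the software had background-subtracted and dye-normalized. The authors also deposited a score per probe and array that follows a signed fold change and is rounded. Its centering stays unknown, its direction was settled against the scanner values, and the median of both columns is 1.

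With limma 3.58.1 (R 4.3.3), intensities were corrected by normexp (offset 50), normalized by loess within each array, cleared of control and outlier spots (3.49% and 3.16%), and averaged per probe. The dye-swapped ratio was turned. Probes entered the test if over 0.5 of their spots, as a share, were well above background in both control channels or in both BIO channels. The test was two-sided (lmFit, then eBayes) at 0.05, adjusted after Benjamini and Hochberg over 28824 probes. The median moderated standard error was 0.111. The number of arrays limits the precision. The fit was tested on simulated data. It called 12 of 67 changes of 0.5 on the log2 scale (17.9%), 65 of 67 of 1 and 66 of 66 of 2. There were 19 false calls. Far fewer probes were changed there than were called in the data, and these shares need not hold for the data. Both arrays shared a slide and a scan, so neither could act as a batch.

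Probe positions are those of the scanner files (mm9), and their place in exons was not analysed here. Of the 96 guidance probes, 87 matched a RefSeq gene of GRCm38.p6 by accession and 9 by symbol. Values in every channel are given for the 4 risen and the 12 most fallen guidance genes. Partners and effectors are named when called with a log2 ratio of at least 1 in size, and Nrp1 was named after its value was seen. The guidance genes, lists, tests and the rule for named genes were chosen with earlier results of these data known. Alternatives were processed signals, median centering, an offset of 16, other probe filters, kept outliers, gene means, the deposited scores, single arrays, other limits of the fold rule and, chosen after seeing the data, the removal of probes with a repeat of 16 or more bases.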

Additional observations from a re-analysis of the deposited data

How the results depend on the processing

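The directions of the 26 called guidance genes held on each array alone, which a test on the mean of both arrays favors. The median of all 61 tested guidance genes ranged from -0.29 without replicate 1 to -0.15 without replicate 2. Of the 26 calls, 11 held both with processed signals and with median centering, namely Efna1, Epha2, Epha3, Epha8, Ephb1, Plxnd1, Sema3a, Sema3d, Sema3g, Slit3 and Unc5b, and these also held under every other tested alternative except the deposited scores. With processed signals 2 genes rose and 10 fell. With the deposited scores 7 rose and 4 fell, and the only calls to hold there and under every other tested alternative were Epha2, Epha8, Sema3a and Slit3. Of all genes, 59.4% of the calls were rises with the scores and 38.2% in the fit reported. The median log2 ratio of the guidance genes was -0.18 with processed signals and -0.19 with the scores, and the prior degrees of freedom of the fit fell from 7.14 to 2.28 with processed signals and to 0.426 with the rounded scores. Over all genes, 797 rose and 1126 fell with processed signals, 827 and 1939 with median centering, and 1929 and 1319 with the scores, against 1970 and 3184. Epha10, not called at 0.02, gave -0.14 with the scores, which passed their test (adjusted p = 0.0478), and the cause was not tested. Other alternatives gave 3 to 5 risen and 16 to 23 fallen guidance genes.

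At a minimum of 1.5-fold, 3 guidance genes were higher and 11 lower on both arrays, against 3.39% and 4.84% of all genes tested. At 3-fold 0 were higher and 3 lower, against 0.162% and 0.742%. On single arrays 1 was higher, and 7 (without replicate 1, where 2.49% of all genes were lower) to 9 (without replicate 2, 3.28%) were lower. Each ratio already pairs BIO with control within an array, and no further block by replicate number could be fitted, since an array gives 1 ratio.

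With 2 arrays, the smallest change called among the guidance genes was 0.38 on the log2 scale, for Slit2, and genes that were not called are not shown to be unchanged.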
